A study of Homo sapiens with 2 samples.

Results

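The genes described here are 10 genes of the integrated stress response, taken by symbol from a fixed list. They are the transcription factors ATF4, ATF3, DDIT3 (which encodes CHOP) and CEBPB, the feedback and effector genes TRIB3, CHAC1, DDIT4 and SESN2, and the amino acid genes ASNS and SLC38A2. All 10 had a single annotated row in each table and all were measured, among 13669 measured genes of 55773 annotated symbols. The samples were 2 RNA-seq libraries from the cell line NCI-H2030, derived from a lung adenocarcinoma. Of these, 1 came from cells treated with miR-494-3p AS and 1 from cells treated with SC. The labels spell out neither abbreviation and name no other agent, time or dose, and the groups are called AS and SC. The study's title ties the microRNA to SET, an inhibitor of protein phosphatase 2A, and the comparison addresses how these transcripts differ with a treatment named for that microRNA.

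With 1 library in each group, no test, p-value or spread between replicates could be had, and every difference below is one between these 2 libraries. A library of bulk RNA also cannot tell a change in the RNA of each cell from a change in which cells are present. Levels are in TPM, a unit scaled by transcript length and by the total of each library, so that genes can be compared with each other. The ratio of a gene is log2((AS + 1)/(SC + 1)) of TPM, on which low genes are understated. A gene was measured at a mean of at least 1 TPM over both libraries, and it was called past 2-fold at a log2 ratio of 1 or more, or of -1 or less. The sources used here give no read counts, so the depth behind a value is unknown and no counting interval could be set. The deposited coverage, read as reads per base, is given beside the levels. Its ratio to FPKM differed between genes, from 0.76 in ATF3 to 3.54 in SESN2 and CEBPB in AS, so coverage is not compared between genes. Within a gene this ratio also differed between the libraries, most in SLC38A2 (2.55 in AS, 3.54 in SC) and ATF3 (0.76 in AS, 0.95 in SC). The folds of these 2 genes in coverage on the TPM scale were below those in TPM. Coverage is therefore set beside TPM as a second measure that can differ from it.

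In the integrated stress response, kinases that sense amino acid shortage, misfolded protein in the endoplasmic reticulum, double-stranded RNA or haem shortage phosphorylate the alpha subunit of the initiation factor eIF2. General protein synthesis falls, while the ATF4 messenger RNA is translated more, because upstream reading frames in its leader stop blocking its coding frame. ATF4 then binds C/EBP-ATF response elements and switches on genes of amino acid uptake, synthesis and tRNA charging, and with prolonged stress it works through CHOP, ATF3, TRIB3 and CHAC1. Because ATF4 is controlled largely by translation, the level of its messenger RNA does not give the amount of its protein, which these libraries do not measure.

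The microRNA named by the labels is shown first with the sites that its seed could pair with, since the treatment carries its name. The sequence of miR-494-3p is from RefSeq (chr14:101029681-101029702, plus strand, GRCh38.p14), with the seed, bases 2 to 8, in capitals.
hsa-miR-494-3p: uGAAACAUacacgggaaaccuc
The 3' UTRs of the longest coding transcripts of the 10 genes in GENCODE release 29 were searched on the transcript strand for the 7 bases that pair with the seed (ATGTTTC) and for the 7-base site TGTTTCA. An overlap of both strings of letters was read as 1 site of 8 bases, and 3 of the 10 genes held a site. Among all 10535 measured coding transcripts with a 3' UTR, 27.2% held at least 1. The sites are given with up to 10 bases on each side and in capitals, on GRCh38.
SLC38A2 (chr12:46358808-46358835, minus strand, 8-base site at bases 2286 to 2293 of the UTR): tcttccgtggATGTTTCAgttacaactg
ATF3 (chr1:212620627-212620653, plus strand, 7-base site at bases 1082 to 1088 of the UTR): taaaattctgATGTTTCtgtgaaattc
SESN2 (chr1:28282473-28282491, plus strand, 7-base site at bases 1681 to 1687 of the UTR): gctgaggtttTGTTTCAta
A match is a description of these letters and not a site known to be bound. The other 7 genes had no match, and their UTRs ranged from 81 bases in ATF4 to 869 in TRIB3, against 2922 in SLC38A2.

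The second set of sequences concerns ATF4 itself. The letters TGATGNAA, the core of the C/EBP-ATF response element, were searched on both strands in the RefSeq promoters, which span 250 bases before to 50 after each start (GRCh38.p14). They occurred in the promoter of 3 of the 10 genes, in 3 of their 17 promoter windows, against 3.62% of all 35116 windows. The matches are given in capitals with 11 bases on each side, on the strand of the gene.
ASNS (chr7:97872458-97872487, minus strand, match begins 68 bases before the start): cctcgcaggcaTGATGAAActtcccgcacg
CHAC1 (chr15:40953251-40953280, plus strand, match on the other strand, 209 bases before the start): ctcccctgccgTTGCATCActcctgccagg
ATF3 (chr1:212565205-212565234, plus strand, match begins 191 bases before the start): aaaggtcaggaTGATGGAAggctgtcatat
No promoter window of the 10 genes held the cyclic AMP response element TGACGTCA, which 1.85% of all windows held. Introns and the 5' leaders beyond the first 50 bases lie outside these windows and were not searched. Which of the starts of these 17 windows the cells used was not tested. For ATF3 the assembled locus began inside the gene in both libraries, as given below.

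The 10 genes differed in direction. In TPM, 2 were at least 2-fold higher in AS, SLC38A2 and ATF3, and none was at least 2-fold lower. The share of all measured genes past 2-fold was 16.5% on the higher side and 2.17% on the lower side. Of the 10, 5 had a ratio above 0 and 5 below 0. Their median log2 ratio was -0.02, against 0.28 over all measured genes, a comparison that sets aside GC content, described below. After centring on that median of all genes, 1 of the 10 was past 2-fold higher, SLC38A2, and 2 were past 2-fold lower, DDIT4 and TRIB3, against 9.17% and 5.09% of all measured genes. The genes above 0 were SLC38A2, ATF3, ASNS, DDIT3 and CEBPB, and those below were DDIT4, TRIB3, CHAC1, ATF4 and SESN2. The sign of CEBPB turned with the scaling and that of DDIT3 was at 0 after centring, as given for each gene.

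**Figure D1:**
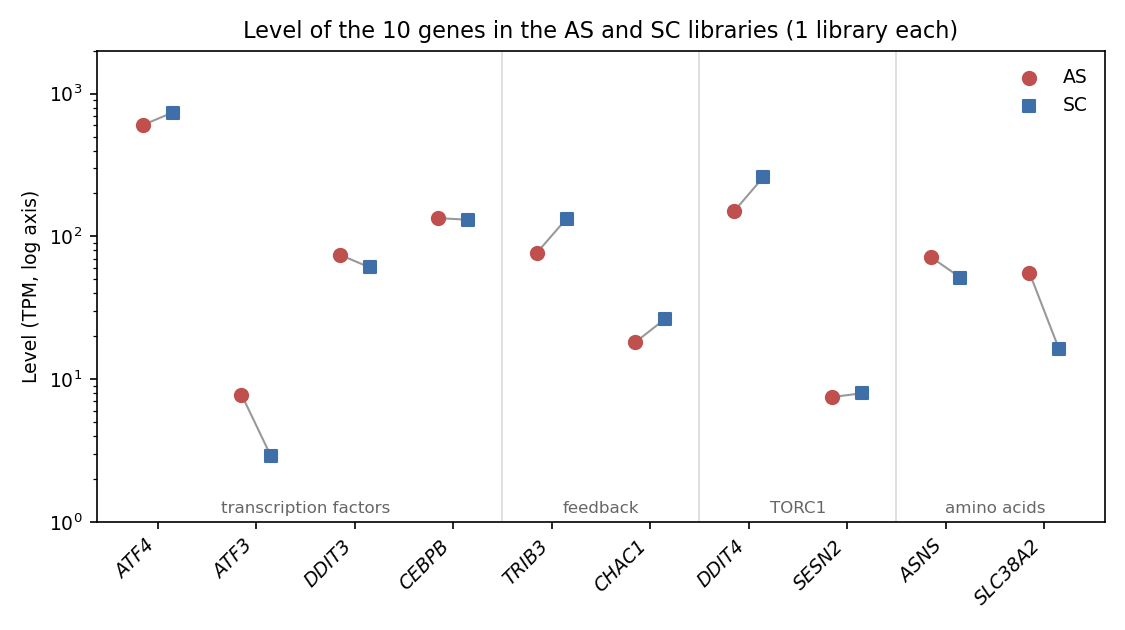
Level of each gene in TPM (log axis) in the AS library (red circles) and the SC library (blue squares), joined by a line and grouped by role, with 1 library per group and no error. SLC38A2 stands at 55.8 TPM in AS and 16.3 TPM in SC, whereas DDIT4 stands at 150 TPM in AS and 261 TPM in SC.

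Levels spanned a wide range. ATF4 was the most abundant of the 10 in both libraries, at rank 213 of all measured genes in AS and rank 187 in SC. In AS it was followed by DDIT4, CEBPB, TRIB3, DDIT3, ASNS, SLC38A2, CHAC1, ATF3 and SESN2. In SC it was followed by DDIT4, TRIB3, CEBPB, DDIT3, ASNS, CHAC1, SLC38A2, SESN2 and ATF3. SLC38A2 and CHAC1 thus stood in the opposite order in the 2 libraries, as did ATF3 and SESN2, and TRIB3 and CEBPB. Without replicates it cannot be said which neighbours in this order differ beyond their spread.

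ATF4 (ENSG00000128272, chromosome 22, 39915700 to 39918691, plus strand, GRCh37), the basic leucine zipper factor at the centre of the response, had 604 TPM in AS and 738 TPM in SC, a log2 ratio of -0.29. Its coverage was 577 reads per base in AS and 772 in SC. Coverage gave a log2 ratio of -0.28 and the assembled locus gave -0.29. The ratio stayed below 0 under every scaling tried, between -0.58 and -0.25. The 4 annotated copies ATF4P1 to ATF4P4 summed to 2.13 TPM in AS and 2.93 TPM in SC, which is small beside the gene itself.

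ATF3 (ENSG00000162772, chromosome 1, 212738676 to 212794119, plus strand), a stress-induced factor that acts mostly as a repressor, had 7.79 TPM in AS and 2.88 TPM in SC, a log2 ratio of 1.18 and 2.71-fold in TPM. Its coverage was 2.79 reads per base in AS and 1.38 in SC, 2.01-fold before any scaling. The assembled locus had 7.77 TPM in AS and 3.49 TPM in SC. In both libraries it ran from 212782012 to 212794119, so it began inside the gene and did not reach its annotated start. Without a pseudocount ATF3 was at least 2-fold higher in AS in each measure, at 2.52-fold in FPKM, 2.21-fold in coverage on the TPM scale and 2.22-fold in the assembled locus. FPKM differs from TPM by 1 factor per library, so its fold follows from that in TPM and is no separate evidence. With 1 added to these low values, the log2 ratio was 0.93 in FPKM, 0.61 in coverage and 0.96 in the assembled locus.

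DDIT3 (ENSG00000175197, chromosome 12, 57910371 to 57914300, minus strand), which encodes CHOP, a C/EBP family factor tied to cell death under stress, had 74.3 TPM in AS and 60.8 TPM in SC, a log2 ratio of 0.28. That is the median ratio of all measured genes, so that DDIT3 was 0.00 above it after centring, and its ratio was -0.01 after trimmed mean scaling. DDIT3 overlaps MARS, the methionyl-tRNA synthetase gene, which is transcribed from the opposite strand, over 982 of its 3930 bases. MARS had 169 TPM in AS and 187 TPM in SC. The library kit keeps the strand, but whether the strand was used in quantification is stated nowhere in these sources, so the DDIT3 values are less certain than the others.

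CEBPB (ENSG00000172216, chromosome 20, 48807376 to 48809212, plus strand), a C/EBP factor that pairs with ATF4 and CHOP, had 134 TPM in AS and 131 TPM in SC, a log2 ratio of 0.04. Its raw coverage was 224 reads per base in AS and 240 in SC. The ratio was -0.07 in FPKM and -0.25 after centring on the median of all genes, so no direction is given for CEBPB.

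TRIB3 (ENSG00000101255, chromosome 20, 361261 to 378203, plus strand), a pseudokinase induced by ATF4 and CHOP that feeds back on them, had 76.9 TPM in AS and 133 TPM in SC, a log2 ratio of -0.78. Coverage was 33.3 reads per base in AS and 63.3 in SC. Coverage gave a ratio of -0.76 and the assembled locus -0.77, and the assembled locus had the same ends as the gene in both libraries. TRIB3 thus stood at 0.577 of its SC level.

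CHAC1 (ENSG00000128965, chromosome 15, 41245160 to 41248710, plus strand), an enzyme that breaks down glutathione and is induced by ATF4, had 18.2 TPM in AS and 26.4 TPM in SC, a log2 ratio of -0.51. Coverage was 27.0 reads per base in AS and 46.3 in SC, with a ratio of -0.61 on the TPM scale. The assembled locus gave -0.30, but in SC that locus began at 41234347, ahead of the gene, and in AS it began at 41245347, inside it. The 2 loci are therefore not the same stretch of sequence.

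DDIT4 (ENSG00000168209, chromosome 10, 74033678 to 74035794, plus strand) encodes REDD1, which restrains the growth kinase complex TORC1 through the TSC complex. It had 150 TPM in AS and 261 TPM in SC, a log2 ratio of -0.80, the lowest of the 10. Coverage was 208 reads per base in AS and 402 in SC. Coverage gave a ratio of -0.81 and the assembled locus -0.80, whose ends were those of the gene in both libraries, and it lay between -1.09 and -0.76 under all alternatives. RP11-442H21.2, annotated on the opposite strand of DDIT4, was listed at 0 in both libraries.

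SESN2 (ENSG00000130766, chromosome 1, 28586038 to 28609002, plus strand), a leucine sensor that also restrains TORC1, had 7.49 TPM in AS and 7.96 TPM in SC, a log2 ratio of -0.08. Coverage was 12.5 reads per base in AS and 14.6 in SC. The ratio was the same in coverage, and it lay between -0.37 and -0.04 under all alternatives. The difference is small, and no replicate shows how large a chance difference would be.

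ASNS (ENSG00000070669, chromosome 7, 97481430 to 97501854, minus strand), which makes asparagine, had 71.6 TPM in AS and 51.5 TPM in SC, a log2 ratio of 0.47. Coverage was 56.2 reads per base in AS and 43.4 in SC, with a ratio of 0.49. The 4 copies ASNSP1, ASNSP3, ASNSP4 and ASNSP5 were listed at 0 in both libraries. ASNS remained above 0 under all scalings, at 0.19 after centring on the median of all genes.

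SLC38A2 (ENSG00000134294, chromosome 12, 46751972 to 46766650, minus strand), which encodes the neutral amino acid transporter SNAT2, had 55.8 TPM in AS and 16.3 TPM in SC, a log2 ratio of 1.72, the highest of the 10, and 3.43-fold in TPM. Coverage was 67.0 reads per base in AS and 29.1 in SC, 2.30-fold before any scaling, and the log2 ratio was 1.29 on the TPM scale. In AS 1 assembled locus covered the whole gene, with 55.8 TPM. In SC the gene was assembled as 3 loci, of which the largest ran from 46751969 to 46758525 with 28.6 TPM. Against that locus the log2 ratio was 0.94, but the 2 loci are not the same stretch of sequence. Over the gene as annotated, the fold ranged from 2.53 in coverage on the TPM scale to 3.43 in TPM. Against the partial locus it was 1.95. The direction was the same in each.

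**Figure D2:**
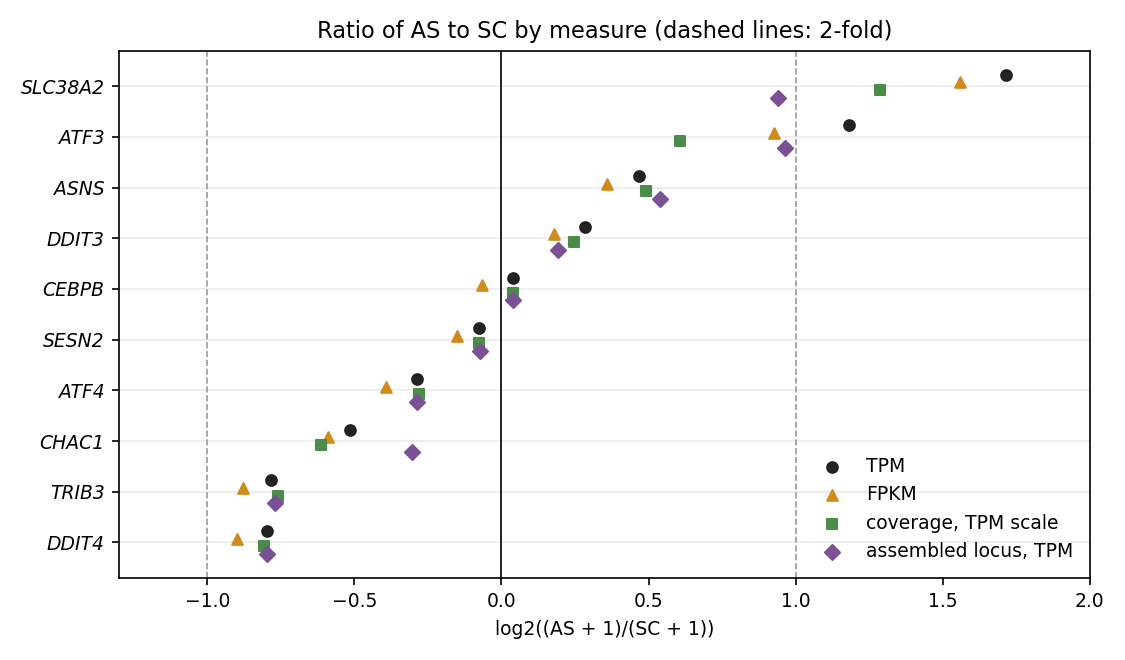
Log2 ratio of AS to SC for each gene in TPM (circles), FPKM (triangles), coverage on the TPM scale (squares) and the assembled locus (diamonds), each with a pseudocount of 1, with dashed lines at 2-fold. The 4 measures of TRIB3, DDIT4 and ATF4 lie close together below 0, whereas those of SLC38A2 spread from 0.94 to 1.72. The 0.94 is from the assembled locus, which in SC spans only part of SLC38A2.

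The count past 2-fold depended on the measure, with 1 added to each value. In FPKM 1 of the 10 was at least 2-fold higher (9.37% of all measured genes) and none was 2-fold lower (1.64%). In coverage 1 was higher (9.47%) and none lower (0.863%), and in the assembled loci none was higher (16.0%) and none lower (2.91%). SLC38A2 was the gene past 2-fold in FPKM and in coverage. Without the added 1, ATF3 was past 2-fold in these measures too, whereas SLC38A2 was at 1.95-fold in the assembled locus, which in SC spans only part of the gene.

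The ratio of a gene followed the base composition of its transcript in these libraries, and the 10 genes span much of that range. GC content was 38.1% in SLC38A2, 47.0% in ASNS, 49.7% in DDIT3, 50.8% in ATF3, 56.7% in ATF4, 58.1% in DDIT4, 59.5% in SESN2, 60.9% in TRIB3, 62.6% in CHAC1 and 66.2% in CEBPB. The measured coding genes were therefore divided into 10 groups of equal size by GC content, and each gene is set beside the median of its own GC group. SLC38A2 lay in the lowest group, whose median log2 ratio was 0.89 and of which 41.7% were at least 2-fold higher, and SLC38A2 itself was 0.82 above that median. ATF3 was 0.92 above the median of its group, in which 6.69% were at least 2-fold higher. CEBPB, in the highest group with a median of -0.29, was 0.33 above it.

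The other 7 genes were below the median of their GC group. Relative to it, DDIT4 stood at -0.73, TRIB3 at -0.60, ATF4 at -0.34 and CHAC1 at -0.33. These 4 lay under the interquartile range of their group, both in TPM and in coverage, and ATF3, SLC38A2 and CEBPB lay over it in both. ASNS at -0.19, DDIT3 at -0.15 and SESN2 at -0.01 relative to their groups lay inside it. ASNS, higher in AS in TPM, was thus below the median of coding genes of like GC content. The median GC content of the 10 genes was 57.4%, against 50.8% over the measured coding genes. The median of their GC group medians was -0.0071, beside their own median log2 ratio of -0.02. The median of their ratios relative to their GC groups was -0.17. What part base composition has in the ratios of these genes was not tested.

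**Figure D3:**
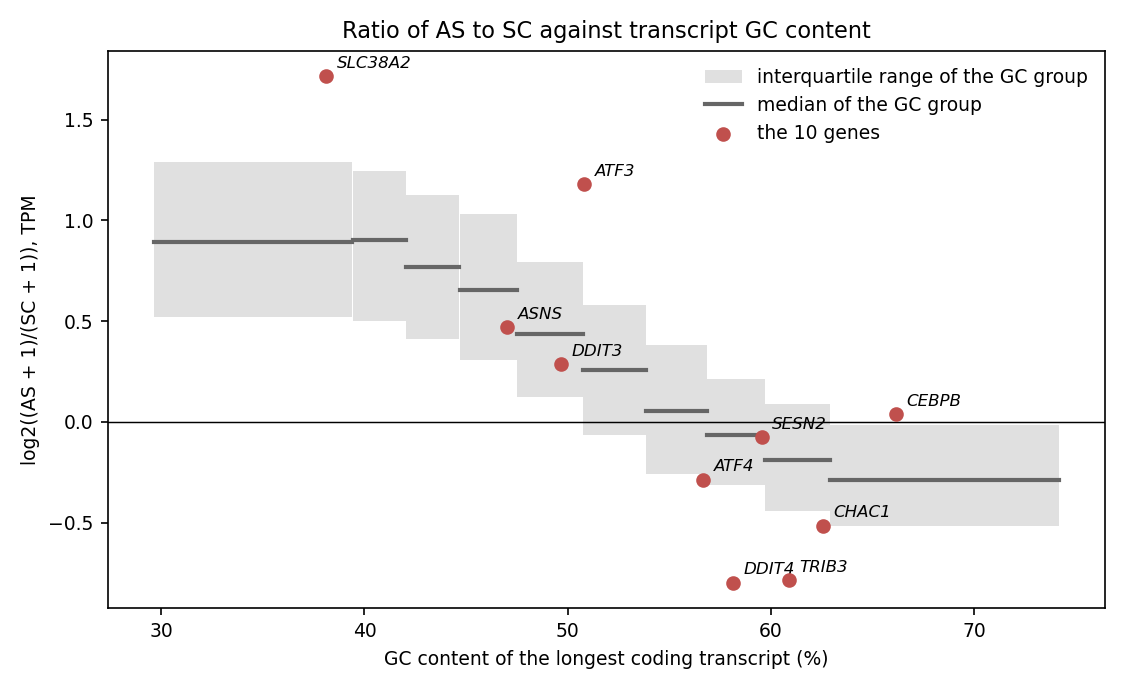
Log2 ratio of AS to SC in TPM against the GC content in percent of the longest coding transcript. Grey boxes span the interquartile range of each of 10 groups of coding genes by GC content and bars mark the group medians. SLC38A2, ATF3 and CEBPB (red points) lie above the boxes at their GC content, DDIT4, TRIB3, CHAC1 and ATF4 below, and ASNS, DDIT3 and SESN2 inside.

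The rest of the pathway was described by 9 lists of 148 genes in all, of which 131 were measured. Of these 22 were past 2-fold on the higher side and 1 on the lower side in TPM, shares that stand beside 16.5% and 2.17% of all measured genes. In coverage 13 were higher and none lower, beside 9.47% and 0.863% of all measured genes.

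Upstream of ATF4, the 21 measured genes of the eIF2 kinases, eIF2, its exchange factor eIF2B and its phosphatase had a median log2 ratio of 0.47. Of them, 3 were past 2-fold higher (16.5% of all measured genes) and none past 2-fold lower (2.17%). The amino acid sensor kinase EIF2AK4 (GCN2) had 21.9 TPM in AS and 6.84 TPM in SC, a log2 ratio of 1.54 but 0.81 in coverage. EIF2AK2 (PKR), which senses double-stranded RNA, had 6.72 TPM in AS and 3.45 TPM in SC (0.80), EIF2AK3 (PERK), of the endoplasmic reticulum, 2.43 TPM in AS and 1.14 TPM in SC (0.68), and the haem-regulated EIF2AK1 78.7 TPM in AS and 71.5 TPM in SC (0.14). The ratio of EIF2S1, which encodes the eIF2 alpha subunit, was 0.82. Of the catalytic subunits of protein phosphatase 1, which removes the phosphate from eIF2 alpha, the most abundant, PPP1CA, named after its value was seen, had 359 TPM in AS and 489 TPM in SC (-0.44 in TPM, -0.46 in coverage). PPP1CC had 51.8 TPM in AS and 20.2 TPM in SC (1.32 in TPM, 1.27 in coverage), and PPP1CB 22.2 TPM in AS and 1.74 TPM in SC (3.08 in TPM but 0.86 in coverage). These genes are of low GC content, with a median of 45.5%, and 14 of the 21 lay below the median of their GC group.

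The 18 measured genes listed as basic leucine zipper partners and paralogs had a median of 0.30. In TPM 2 were past 2-fold higher (16.5% of all measured genes) and none past 2-fold lower (2.17%). The 2 higher genes were NFE2L2 (NRF2), a factor of the oxidative stress response, and CEBPG, a partner of ATF4. NFE2L2 had 32.1 TPM in AS and 11.3 TPM in SC (1.43 in TPM, 0.77 in coverage). CEBPG had 17.8 TPM in AS and 7.72 TPM in SC (1.11 in TPM, 1.02 in coverage). CEBPZ, a CCAAT-binding protein that is among the 18 but outside the leucine zipper family, had a ratio of 0.78 and ATF7 one of 0.67. ATF5, the closest relative of ATF4, had 201 TPM in AS and 159 TPM in SC (0.34), whereas ATF4 itself was below 0.

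In TPM, relatives of the effector genes had ratios apart from theirs, differences that could not be tested. TRIB1, a pseudokinase of the TRIB3 family, had 8.57 TPM in AS and 2.76 TPM in SC, a log2 ratio of 1.35 against -0.78 for TRIB3, and TRIB2 had 0.20. CHAC2, a paralog of CHAC1, had 0.55 against -0.51 for CHAC1. GC content is 36.7% in CHAC2 and 62.6% in CHAC1. Relative to the medians of their GC groups, CHAC2 stood at -0.35 and CHAC1 at -0.33. SLC38A1, a transporter of the same family as SLC38A2, had 11.5 TPM in AS and 4.68 TPM in SC, a ratio of 1.14 in TPM and 0.80 in coverage. ASNSD1, which shares the asparagine synthetase domain of ASNS, had 23.5 TPM in AS and 6.78 TPM in SC, a ratio of 1.65. SESN1, SESN3 and DDIT4L were below the level of measured genes in both libraries, so SESN2 and DDIT4 were the measured members of their families. In all 3 of 8 measured paralogs were past 2-fold higher (16.5% of all measured genes) and none past 2-fold lower (2.17%). In coverage 2 were past 2-fold higher (9.47%). ASNSD1 and SLC38A1 lie in GC groups of which 41.7% and 41.5% were past 2-fold higher in TPM, and TRIB1 in one with 6.69%. Of the 8, 4 lay above the median of their GC group and 4 below.

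The classical ATF4 targets of amino acid metabolism showed no shared direction. None of 8 measured amino acid transporters was past 2-fold higher (16.5% of all measured genes) or lower (2.17%). Their median log2 ratio was 0.18 in TPM and -0.04 in coverage. Those farthest from 0 were SLC7A6 (0.90), the cationic amino acid transporter SLC7A1 (0.84) and the cystine transporter SLC7A11, with 5.82 TPM in AS and 3.00 TPM in SC (0.77). Of 11 measured enzymes 2 were past 2-fold higher (16.5% of all measured genes) and 1 past 2-fold lower (2.17%), with a median of -0.02. PSPH, the last enzyme of serine synthesis, had a ratio of 2.23 in TPM but 0.46 in coverage. MTHFD2, a mitochondrial folate enzyme, had 47.4 TPM in AS and 20.2 TPM in SC (1.19), and CBS, which makes cystathionine, had 25.9 TPM in AS and 54.3 TPM in SC (-1.04 in TPM, -0.83 in coverage). Of 12 tRNA charging genes 4 were past 2-fold higher in TPM, where 16.5% of all measured genes were, and none past 2-fold lower, with a median of 0.29. They were the isoleucine enzyme gene IARS (39.1 TPM in AS, 7.93 TPM in SC, ratio 2.17), the asparagine enzyme gene NARS (1.24), the tRNA exporter gene XPOT (1.14) and, named after its value was seen, the leucine enzyme gene LARS (1.07). The 4 lie in GC groups of which 33.8% and 41.5% were past 2-fold higher, and 8 of the 12 genes lay below the median of their GC group.

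The letters TGATGNAA varied in frequency over the promoters of the lists of ATF4 targets. They occurred in 7 of 11 genes of the tRNA charging list with a RefSeq promoter, 4 of 8 amino acid transporters, 2 of 8 amino acid and one-carbon enzymes and 2 of 17 secreted, autophagy and cell death targets, against 4.46% of 27305 genes with a promoter. The lists hold genes known as ATF4 targets, so these shares do not stand on their own. Ratios were compared only for measured coding genes whose deposited symbol is also the RefSeq symbol. Genes that RefSeq lists under a newer symbol, such as AARS1 for AARS, were not matched. The 190 matched genes with the letters had a median log2 ratio of 0.45 in TPM and 0.30 in coverage. The 7880 matched genes without them had 0.32 in TPM and 0.27 in coverage. Median GC content was 48.1% with the letters and 50.6% without, and the median of the GC group medians in TPM was 0.43 in both sets.

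The 20 measured secreted, autophagy and cell death targets had a median of 0.45. In TPM 5 were past 2-fold higher (16.5% of all measured genes) and none past 2-fold lower (2.17%). In coverage 3 were past 2-fold higher (9.47%). The apoptosis activator BCL2L11 (BIM) had 4.43 TPM in AS and 0.327 TPM in SC, a ratio of 2.03 in TPM but 0.32 in coverage. CCPG1, an autophagy receptor of the endoplasmic reticulum, had 19.0 TPM in AS and 4.18 TPM in SC (1.95 in TPM, 1.12 in coverage), RND3 had a ratio of 1.44 and the autophagy gene ATG5 one of 1.24. KLHL24 was the last of the 5, named after its value was seen. It had 1.88 TPM in AS and 0.357 TPM in SC, a ratio of 1.09. Its coverage gave 0.24, and its assembled locus gave 0.68. BCL2L11 and KLHL24 stood below 1 TPM in SC, so they counted as measured only through their level in AS. GDF15, a secreted stress cytokine, stood on the side of TRIB3 and DDIT4, with 139 TPM in AS and 258 TPM in SC (-0.88), and was chosen after its value was seen.

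None of the 17 targets of the IRE1 and ATF6 branches, the other arms of the unfolded protein response, was past 2-fold. Of all measured genes 16.5% were past 2-fold higher and 2.17% past 2-fold lower. The median log2 ratio of the 17 targets was 0.04. All 17 lay below the median of their GC group in TPM, from -0.02 in ERN1 and HYOU1 to -1.06 in CALR relative to it. In coverage this did not hold for HSPA5 (0.63, group median 0.53) and DNAJB11 (0.38, group median 0.37). The targets with ratios farthest from 0 were the chaperone CALR, with 791 TPM in AS and 1376 TPM in SC (-0.80), CRELD2 (-0.69), MANF (-0.68) and SDF2L1 (-0.65). The 16 genes of the TORC1 pathway, on which DDIT4 and SESN2 act, had a median of 0.16. Of them, 3 were past 2-fold higher (16.5% of all measured genes) and none past 2-fold lower (2.17%). The kinase gene MTOR had 22.8 TPM in AS and 10.4 TPM in SC (1.07 in TPM, 1.10 in coverage), MIOS of the GATOR2 complex, to which SESN2 binds, had a ratio of 1.78 in TPM and 0.87 in coverage, TSC1 1.18 in TPM and 0.32 in coverage, and NPRL3 -0.99 in TPM and -0.31 in coverage.

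**Figure D4:**
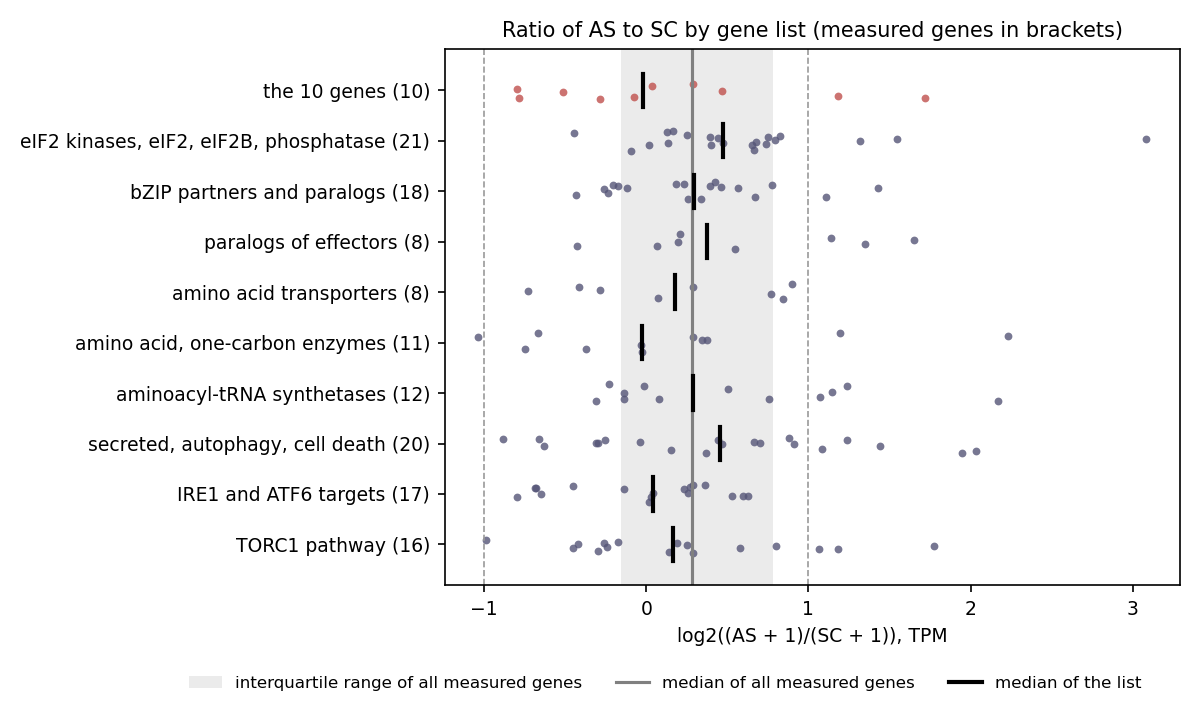
Log2 ratio of AS to SC in TPM for each measured gene (points) of the 10 genes (red) and the 9 other lists, with the number measured in brackets and the list median as a black bar. The grey band is the interquartile range of all measured genes and the grey line their median of 0.28. The medians of the 10 genes, of the amino acid and one-carbon enzymes and of the IRE1 and ATF6 targets lie lowest, at -0.02, -0.02 and 0.04. The medians of the GC group medians of these lists, not drawn, are -0.0071, 0.26 and 0.43.

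The most frequent ratio of coverage to FPKM over all rows was 3.54 in AS and 3.62 in SC, and of the 10 genes SESN2 and CEBPB had it in both libraries. SET had 79.1 TPM in AS and 30.4 TPM in SC, and the gene of the microRNA, MIR494, was listed at 0 in both, so the level of the microRNA gives no check of the treatment. The keratins KRT8 and KRT18 of simple epithelium had 345 to 558 TPM over both libraries, whereas the lung lineage factor NKX2-1 and the epithelial cadherin CDH1 had at most 0.0324 TPM, and KRT19 and SFTPC were listed at 0. The leukocyte marker PTPRC was listed at 0 in both libraries. Of the fibroblast markers, COL1A1 had 15.8 TPM in AS and 26.3 TPM in SC, COL3A1 had 7.23 TPM in AS and 4.32 TPM in SC, and PDGFRB had 0.0235 TPM in AS and 0.0279 TPM in SC. Their part in the ratios above was not tested.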

How the data were processed

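Per the labels' protocols, total RNA of NCI-H2030 cells was isolated on silica columns, and a directional kit gave 1 library for AS and 1 for SC. Per the file headers, the authors deposited a coverage (signal per base), an FPKM and a TPM column for annotated genes and for loci assembled from reads. The sources used here name no aligner, quantification program or read length. The submitters' processing notes name GRCh38 and hg38, whereas the gene coordinates in the tables are those of GRCh37 and none of the 10 gene starts equals its start in GENCODE release 29. Gene coordinates are printed as deposited, sequences with GRCh38 coordinates. The TPM column summed to 1000000 over assembled loci and to 968917 (AS) and 973681 (SC) over annotated genes.

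Rows of 1 symbol were summed. To bring coverage to the TPM scale, it was multiplied by TPM per FPKM (2.13 in AS, 1.98 in SC) over the most frequent coverage per FPKM (3.54 in AS, 3.62 in SC). The coverage per FPKM differed between genes and, within a gene, between the libraries. The assembled locus was the one on the same strand that overlapped a gene most. GC content came from the longest coding transcript of GENCODE release 29, matched by gene ID, for 95.9% of measured genes. The 10 GC groups held 10768 coding genes in all. Promoters and the microRNA came from RefSeq. Named genes were the 10 genes, the eIF2 kinases, defined paralogs, and in each list the 3 genes (4 in lists of over 15) with the largest absolute ratio. The 10 genes, lists and tests were chosen with earlier results of these data known. The alternatives were other pseudocounts, measures, scalings and filters. The ratio calculation was tested on simulated data. Python 3.11.15, pandas 2.3.3, numpy 2.4.6 and matplotlib 3.10.9 were used.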

Additional observations from a re-analysis of the deposited data

How the results depend on the processing

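No paired analysis was possible because each group has 1 library, and for the same reason no replicate could be left out. Of the 10 genes, 8 kept the sign of their ratio under all alternatives; DDIT3 ranged from -0.01 to 0.33 and CEBPB from -0.25 to 0.08. The 2 genes past 2-fold higher became 1 with a pseudocount of 5 TPM, in FPKM, in coverage, after centring on the median of all genes and after trimmed mean scaling, which moved ratios by 0.29, and 0 in the assembled loci. The 0 genes past 2-fold lower became 2 after centring and after trimmed mean scaling. The median of the 10 genes, -0.02, was -0.0082 with a pseudocount of 5, -0.11 in FPKM, -0.30 after centring, -0.31 after trimmed mean scaling and 0.0198 with TPM rescaled over nuclear coding genes. Of the 131 genes of the other lists, the 22 past 2-fold higher were 12 with a pseudocount of 5, after centring and after trimmed mean scaling and 13 in coverage, and the 1 past 2-fold lower became 2 with a pseudocount of 0.1 and in FPKM, 0 with a pseudocount of 5, in coverage and in the assembled loci, and 6 after centring and after trimmed mean scaling. Of all measured genes, 5.32% were past 2-fold higher and 0.512% past 2-fold lower with a pseudocount of 5. These shares were 23.0% and 3.67% with a pseudocount of 0.1. They were 9.17% and 5.09% after centring, and 9.01% and 5.25% after trimmed mean scaling. In FPKM they were 9.37% and 1.64%, in coverage 9.47% and 0.863%, and in the assembled loci 16.0% and 2.91%. After centring 64.3% of all genes past 2-fold were higher, and 63.2% after trimmed mean scaling, against 88.3% before. Fewer genes reach 2-fold with a larger pseudocount by construction. ATF3, past 2-fold in each measure without a pseudocount, falls short of it where 1 is added to its low values in FPKM, coverage and the assembled locus. Centring and trimmed mean scaling lower every ratio, by 0.28 and 0.29. FPKM differs from TPM by 1 factor per library (2.13 in AS, 1.98 in SC). For the changes of the other genes in coverage and in the assembled loci the cause was not tested. The depth behind each value is unknown.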
